A study of Mus musculus with 9 samples.

Results

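The genes described here encode the ion channels that open with voltage and the wider potassium channel families. They were chosen by symbol, taking the genes whose names start with Kcn, the sodium channel subunits (Scn followed by a number and a or b), the calcium channel subunits (Cacna, Cacnb and Cacng) and the Hcn genes, and leaving out Kcnj10, Kcnj13 and symbols ending in os. Of 17482 genes in the table, 122 matched the names, and 109 of these had a log2 CPM (log2 counts scaled to library size, the unit of the table) above 0 in at least 3 of the 9 libraries. The same filter left 15251 genes of all kinds. Among the 109, 89 were above 0 in every library, and Kcng1 passed through its SG libraries alone. Among the 13 that did not pass were Cacna1f, Kcna5, Kcnj4, Kcnj5, Kcnj14, Kcnj15, Kcnk4, Kcnmb1, Kcnrg, Kcnv1, Kcnv2 and Scn11a.

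RNA from mouse tumour tissue, labelled MB, was sequenced in bulk at postnatal day 8 or 9 in 3 groups of 3 libraries. The YSGr and YSGnr tumours carried the fYap1, fSMO-M2 and hGFAPcre alleles and are labelled rescued (YSGr) and non rescued (YSGnr), and the SG tumours carried fSMO-M2 and hGFAPcre without fYap1. All 3 groups therefore share SMO-M2, an active form of the Hedgehog pathway protein Smoothened, and a Cre driven by the human GFAP promoter, which is active in neural progenitors of more than 1 lineage. The labels do not define rescue, give no sex and do not say that each library came from its own animal. The p-values therefore reflect how far libraries of a group differ, part of which may be technical.

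Voltage-gated sodium channels carry the rising phase of the action potential, voltage-gated calcium channels couple depolarization to transmitter release and calcium signals, and potassium channels repolarize the membrane or set its resting potential. Each pore-forming subunit assembles with auxiliary subunits that steer its trafficking and gating. In the cerebellum, dividing granule cell progenitors are electrically immature, and granule and Purkinje neurons acquire characteristic sets of these channels as they differentiate.

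Yap1, the targeted gene, had 4.44, 3.31 and 2.79 log2 CPM in YSGr replicates 1, 2 and 3, against 2.79, 2.57 and 1.99 in YSGnr replicates 1, 2 and 3 and 5.04, 5.11 and 5.03 in SG. All 6 libraries labelled as carrying fYap1 lay below the 3 SG libraries, and gene-level values do not separate a deleted exon from the rest of the transcript. The effective library size, back-calculated from the table, was between 18.1 M and 32.3 M reads (M, mega) in 8 libraries and 3.92 M in YSGnr replicate 1, where the repeat RNA Yam1 and the gene Lars2 made up 63.4% of the reads, compared with 1.98% to 8.15% elsewhere. Channel genes of low level are therefore measured least precisely in that library. Xist was above 9 log2 CPM in all 3 YSGr libraries and in YSGnr replicate 1. It was below 0 in the other YSGnr libraries and in all 3 SG libraries. Sex and group therefore cannot be told apart between YSGr and SG, and sex is also unbalanced in the comparisons with YSGnr. The dividing cell gene Mki67 had 8.96, 8.48 and 8.94 log2 CPM in YSGr, 9.65, 9.41 and 9.19 in YSGnr and 9.84, 9.76 and 9.85 in SG, and in YSGr it fell by 1.02 log2 units against SG (limma adjusted p = 0.0141). Atoh1 and Barhl1, defining genes of the granule lineage, were detected in every library.

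In YSGr tumours 72 of the 109 channel genes had a log2 fold change above 0 relative to SG, as had 7278 of all 15251 genes tested. Of the 109, 26 rose and 2 fell at an adjusted p below 0.05 (limma over all 15251 genes, Benjamini-Hochberg adjustment), and these directions were called for 6.58% and 3.97% of all genes tested. The 26 make up 23.9% of the channel genes and the 2 make up 1.83%. In 19 of the 26 the mean level was at least 2-fold that of SG. The median log2 fold change was 0.49 over the channel genes and -0.02 over all genes tested. The 3 YSGr libraries all lay above the 3 SG libraries for 46 channel genes and all below for 15, which is 42.2% and 13.8% of them, against 19.5% and 17.3% of all genes tested. At an unadjusted p below 0.05, 44 were higher and 9 were lower, beside 14.3% and 11.9% of all genes tested.

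In YSGnr tumours 3 channel genes rose relative to SG, the potassium channel genes Kcng4, Kcnk1 and Kcnj11. Among the 4 that fell were Cacng3 and Cacng4, which encode partners of AMPA receptors, and the pacemaker channel gene Hcn3. The 3 and the 4 are 2.75% and 3.67% of the channel genes beside 1.19% and 2.17% of all genes tested. The median log2 fold change was -0.17 over the channel genes and -0.01 over all genes. The libraries did not overlap for 18 channel genes that were higher and 21 that were lower in YSGnr, or 16.5% and 19.3%, near the 16.9% and 21.3% of all genes tested. At an unadjusted p below 0.05, 11 were higher and 16 were lower, beside 11.1% and 14.5% of all genes tested.

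Set directly against YSGnr tumours, YSGr tumours had 15 channel genes called higher, or 13.8% beside 5.09% of all genes tested. None was called lower by limma in this comparison, beside 0.879% of all genes, and at an unadjusted p below 0.05, 58 were higher and 5 were lower, beside 19.3% and 14.6% of all genes. The median log2 difference was 0.74 over the channel genes and 0.01 over all genes. The libraries did not overlap for 29 channel genes that were higher in YSGr, 26.6% against 15.0% of all genes. They did not overlap for 2 that were lower, 1.83% against 7.46% of all genes. Fitted on the 6 YSGr and YSGnr libraries alone, limma called none of the 109, nor any other gene. In that fit 50 channel genes had an unadjusted p below 0.05, and the share of all genes at that threshold was not counted. The 3 comparisons share their libraries pairwise and are not independent of each other. In all, 33 channel genes were called in at least 1 comparison and 76 in none. The share of all genes called in at least 1 comparison was not counted.

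**Figure D1:**
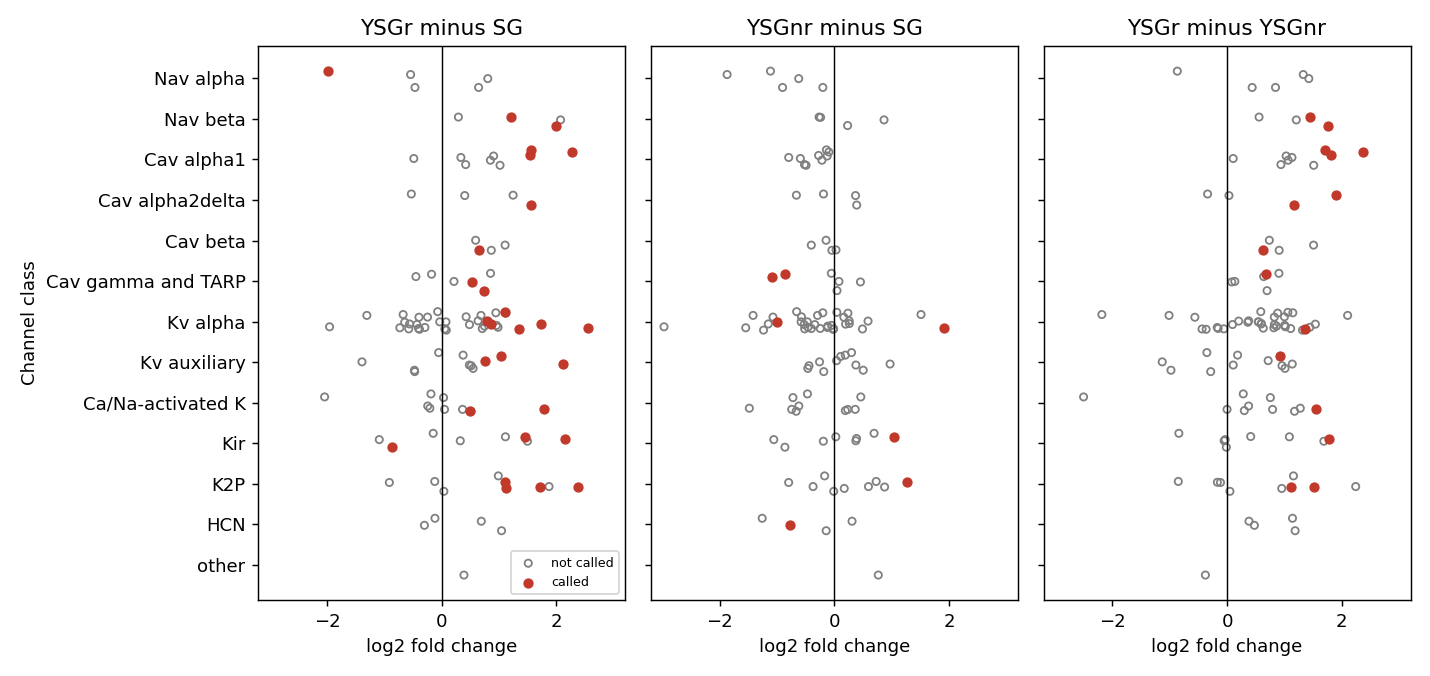
Log2 fold change of each of the 109 channel genes (horizontal axis) by channel class (vertical axis) in the 3 comparisons, with called genes as filled points and the others as open points. Called genes lie mostly to the right of 0 in YSGr minus SG, with 26 to the right and 2 to the left, and 3 lie to the right and 4 to the left in YSGnr minus SG.

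The 3 genes called higher in both YSGr and YSGnr against the same SG libraries belong to different families. Kcng4 (ENSMUSG00000045246.11, chromosome 8, 119623854 to 119635680, minus strand, GRCm38) encodes a modulatory voltage-gated subunit that makes no channel alone and assembles with other pore subunits. Its level was 3.33, 3.71 and 4.12 log2 CPM in YSGr, 3.60, 3.16 and 2.51 in YSGnr and 1.02, 1.31 and 1.17 in SG. The lowest YSGr or YSGnr library lay more than 1 log2 unit above the highest SG library, and YSGr and YSGnr overlapped. The log2 fold change against SG was 2.55 in YSGr (SE 0.30, limma adjusted p = 0.00268) and 1.92 in YSGnr (SE 0.30, adjusted p = 0.017), the largest positive ones among the called channel genes in both comparisons.

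Kcnk1 (ENSMUSG00000033998.9, chromosome 8, 125995170 to 126030685, plus strand, GRCm38) encodes a leak potassium channel of the K2P family, whose subunits each hold a pair of pore loops and whose channels stay open at rest. Its level was 6.88, 6.76 and 6.74 log2 CPM in YSGr, 6.71, 6.87 and 7.30 in YSGnr and 5.57, 5.64 and 5.87 in SG. The YSGr and YSGnr libraries overlapped and all 6 stood above SG. Kcnk1 rose 2.14-fold in YSGr (log2 fold change 1.10, SE 0.17, limma adjusted p = 0.00642) and 2.41-fold in YSGnr (1.27, SE 0.17, adjusted p = 0.0111), both against SG.

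Kcnj11 (ENSMUSG00000096146.2, chromosome 7, 46093953 to 46100764, minus strand, GRCm38) encodes the inward rectifier pore of the ATP-sensitive potassium channel, which closes when cellular ATP is high. Its level was 3.52, 3.25 and 2.92 log2 CPM in YSGr, 3.00, 2.52 and 2.94 in YSGnr and 1.72, 1.75 and 1.86 in SG. Again all 6 fYap1 libraries were above the 3 SG libraries. The log2 fold change was 1.46 in YSGr (SE 0.21, limma adjusted p = 0.00596) and 1.05 in YSGnr (SE 0.21, adjusted p = 0.0365). Abcc8, the regulatory subunit that assembles with this pore, had a log2 fold change of 1.32 in YSGr (adjusted p = 0.0677) and 0.60 in YSGnr (adjusted p = 0.363), neither of them called.

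The promoters of Kcng4 and Kcnk1 are printed because these genes were called in both groups against SG. Each runs from 250 bases before to 50 bases after the RefSeq start on GRCm38.p6, 5′ to 3′ on the gene's strand. The RefSeq start of Kcnk1 used here lies 68 bases from the GENCODE start. Capitals mark the motif matched, which is the E-box CAGCTG in Kcng4 (chr8:119635631-119635930, minus strand) and the TEAD motif GGAATG in Kcnk1 (chr8:125994852-125995151, plus strand).
Kcng4: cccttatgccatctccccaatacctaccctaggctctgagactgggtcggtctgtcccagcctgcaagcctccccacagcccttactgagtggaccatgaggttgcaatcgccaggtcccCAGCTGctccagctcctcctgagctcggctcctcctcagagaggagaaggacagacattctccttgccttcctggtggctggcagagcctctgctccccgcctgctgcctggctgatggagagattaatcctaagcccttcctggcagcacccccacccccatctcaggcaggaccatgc
Kcnk1: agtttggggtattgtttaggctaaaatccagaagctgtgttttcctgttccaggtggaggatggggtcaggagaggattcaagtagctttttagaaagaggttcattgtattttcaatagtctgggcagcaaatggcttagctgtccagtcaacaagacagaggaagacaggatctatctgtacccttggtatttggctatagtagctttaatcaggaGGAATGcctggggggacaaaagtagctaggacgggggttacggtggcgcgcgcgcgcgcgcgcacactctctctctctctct
TEAD factors are the DNA-binding partners of Yap1, and neurogenic basic helix-loop-helix factors bind E-boxes. Both strands of the RefSeq promoters of 77 of the 109 genes were searched. The TEAD letters GGAATG were in 22.1% of these 77 promoters, against 12.2% of the 10875 promoters of all tested genes that had one. The E-box letters CAGCTG were in 28.6% of the 77, against 15.2%. The GLI motif TGGGTGGTC and the core of the RE1 element, which the repressor REST binds, were in none of the 77, and in 0.202% and 0.092% of all promoters. Among the 26 genes called higher in YSGr against SG, 17 had a promoter, of which 3 held the TEAD letters and 4 the E-box letters. Such a match describes these letters in this window and is not a measured binding site.

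**Figure D2:**
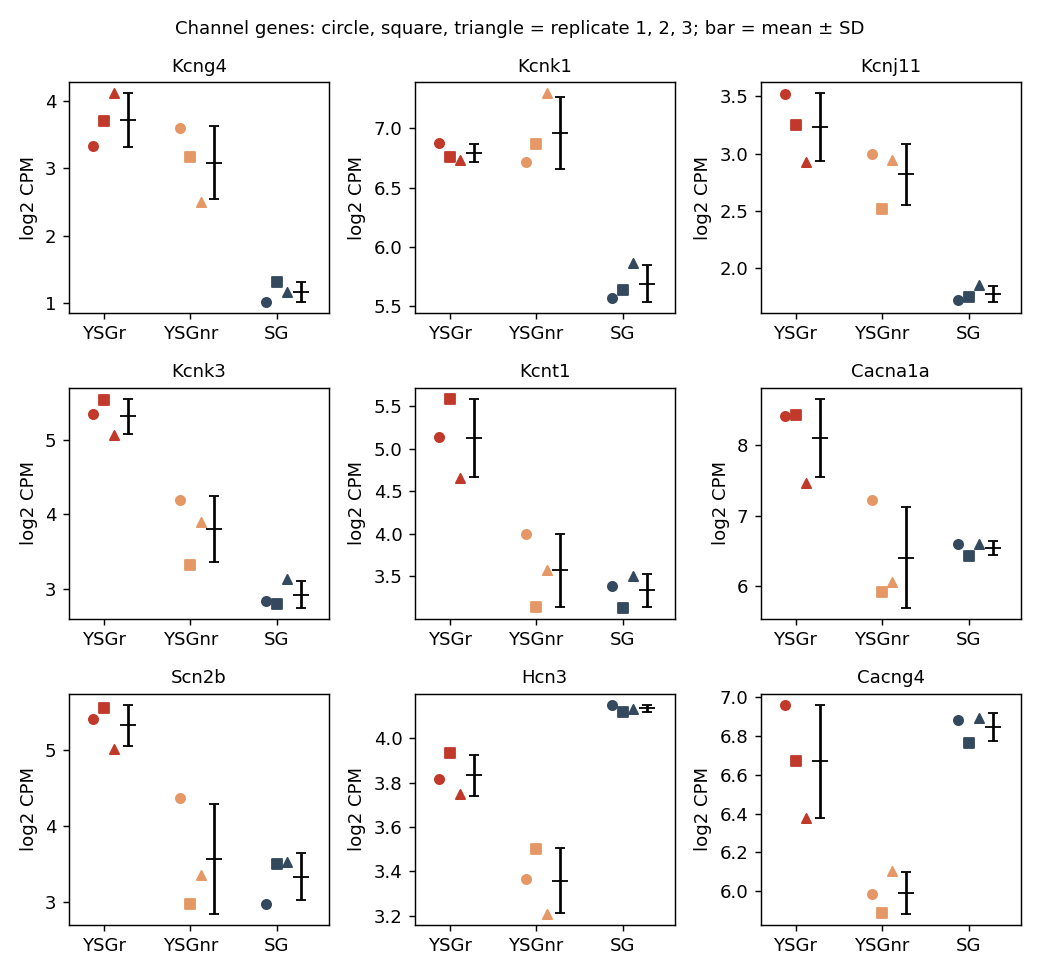
Log2 CPM (vertical axis) of 9 channel genes in each library of YSGr, YSGnr and SG (horizontal axis), with replicates 1, 2 and 3 as circle, square and triangle and the mean ± SD beside them (n = 3). Kcng4, Kcnk1 and Kcnj11 are above SG in all 6 YSGr and YSGnr libraries, Kcnt1, Cacna1a and Scn2b are above SG in all YSGr libraries, and Hcn3 and Cacng4 are below SG in all YSGnr libraries.

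Scn2b encodes an auxiliary beta subunit of sodium channels, a class that modulates gating and takes part in cell adhesion. It had 5.41, 5.55 and 5.02 log2 CPM in YSGr, 4.37, 2.97 and 3.36 in YSGnr and 2.98, 3.50 and 3.53 in SG. Scn2b was higher in every YSGr library than in any other, and YSGnr and SG overlapped. Its log2 fold change was 1.99 against SG (SE 0.34, limma adjusted p = 0.00948) and 1.76 against YSGnr (SE 0.34, adjusted p = 0.0329).

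Of the 5 sodium channel pore (alpha) genes that passed the filter, limma called none higher in YSGr against SG, and none was higher at an unadjusted p below 0.05. Scn8a, which encodes the main pore of mature nodes and axon initial segments and was the most abundant of the 5 per length, had 7.83, 7.78 and 7.10 log2 CPM in YSGr, 7.39, 6.46 and 6.32 in YSGnr and 6.92, 6.98 and 6.87 in SG. The YSGr libraries lay above SG, yet the log2 fold change of 0.64 (SE 0.29) had a limma adjusted p of 0.197. Scn7a, an atypical sodium channel that senses extracellular sodium, had -1.47, -1.52 and 0.07 log2 CPM in YSGr, 0.70, -0.19 and -0.82 in YSGnr and 1.24, 0.78 and 1.01 in SG. It was lower in all 6 fYap1 libraries than in SG and in YSGr it fell by 1.98 log2 units (SE 0.53, limma adjusted p = 0.046). At these levels the authors' added count narrows a fold change on the log2 CPM scale. The brain sodium pore listed as Scn2a1, an older symbol that the naming rule does not take and that was added after its values were seen, had 6.55, 6.78 and 5.23 log2 CPM in YSGr, 5.26, 4.41 and 4.55 in YSGnr and 4.94, 4.93 and 5.30 in SG. YSGr replicate 3 lay among the libraries of the other groups, and the log2 fold change of 1.13 against SG was not called (limma adjusted p = 0.0946). Its unadjusted p was 0.0155, below the 0.05 that none of the 5 reached in this direction.

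Of 9 calcium channel pore genes, 8 had a log2 fold change above 0 in YSGr against SG and limma called 3 higher. It called none in YSGnr against SG, where 0 had an unadjusted p below 0.05. Cacna1a (ENSMUSG00000034656.17, chromosome 8, 84388440 to 84640246, plus strand, GRCm38) encodes the P/Q-type pore that triggers transmitter release at many synapses and dominates Purkinje cell calcium current. It had 8.42, 8.44 and 7.46 log2 CPM in YSGr, 7.23, 5.92 and 6.06 in YSGnr and 6.60, 6.43 and 6.59 in SG. Each YSGr library was above each library of the other groups, while YSGnr replicate 1 was above SG and YSGnr replicates 2 and 3 were below it. The rise against SG was 2.96-fold (log2 fold change 1.56, SE 0.36, limma adjusted p = 0.0276) and against YSGnr 3.26-fold (1.70, SE 0.36, adjusted p = 0.0387).

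The low-voltage-activated T-type pores Cacna1g and Cacna1i, which support rebound bursts, rose as well. Cacna1i had 4.83, 5.28 and 3.96 log2 CPM in YSGr, 3.40, 1.56 and 1.99 in YSGnr and 2.37, 2.30 and 2.56 in SG, a log2 fold change of 2.28 against SG (SE 0.47, limma adjusted p = 0.0191). Cacna1g had 8.04, 8.16 and 7.29 in YSGr, 6.99, 5.47 and 5.58 in YSGnr and 6.30, 6.26 and 6.32 in SG, and rose by 1.54 log2 units against SG (SE 0.38, adjusted p = 0.0343). In both genes YSGr stood above the other groups, and YSGnr replicate 1 lay above SG while the other YSGnr libraries lay below. The remaining T-type pore, Cacna1h, had a log2 fold change of -0.49 against SG and was not called (adjusted p = 0.29). The R-type pore Cacna1e and the N-type pore Cacna1b, both abundant, had log2 fold changes of 1.02 (adjusted p = 0.229) and 0.42 (adjusted p = 0.496).

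Among auxiliary calcium channel subunits, 1 of 4 alpha2delta, 1 of 4 beta and 2 of 6 Cacng genes rose in YSGr against SG. Cacna2d3, an alpha2delta subunit that promotes surface delivery of the pore, had 5.99, 6.05 and 5.27 log2 CPM in YSGr, 4.65, 4.67 and 4.46 in YSGnr and 4.19, 4.18 and 4.24 in SG. The 3 groups did not overlap, and YSGnr lay between YSGr and SG. Its log2 fold change in YSGr was 1.57 against SG (SE 0.20, limma adjusted p = 0.00358) and 1.18 against YSGnr (SE 0.20, adjusted p = 0.0277). Cacna2d2, the alpha2delta subunit lost in the ataxic ducky mouse, had 6.67, 6.72 and 5.52 log2 CPM in YSGr, 4.98, 4.33 and 3.88 in YSGnr and 5.07, 4.94 and 5.16 in SG. It was higher in YSGr than in YSGnr by 1.91 log2 units (SE 0.35, adjusted p = 0.0302), and the difference of 1.25 from SG was not called (adjusted p = 0.0525). Cacna2d1 was not called, at -0.53 against SG (adjusted p = 0.109). Among the 4 intracellular beta subunits only Cacnb3 was called, at 0.66 in YSGr against SG (adjusted p = 0.026), while Cacnb4 had a larger log2 fold change of 1.11 with a wider SE of 0.41 (adjusted p = 0.123).

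The 6 Cacng genes that passed the filter encode TARPs, relatives of the muscle calcium channel gamma subunit that carry AMPA-type glutamate receptors to the synapse. Cacng2, or stargazin, which cerebellar granule cells need for AMPA receptor currents, had 7.76, 7.61 and 7.75 log2 CPM in YSGr, 7.53, 7.87 and 7.47 in YSGnr and 7.12, 7.14 and 7.25 in SG. All 6 fYap1 libraries were above SG. It rose 1.45-fold in YSGr (limma adjusted p = 0.0422), and the log2 fold change of 0.45 in YSGnr was not called (adjusted p = 0.0968). Cacng5 also rose in YSGr, by 0.74 log2 units (adjusted p = 0.0456).

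Other TARPs were lower in YSGnr. Cacng4 had 6.96, 6.67 and 6.38 log2 CPM in YSGr, 5.98, 5.89 and 6.10 in YSGnr and 6.88, 6.76 and 6.90 in SG. The YSGnr libraries were below all the others, and YSGr overlapped SG. Cacng4 fell by 0.86 on the log2 scale in YSGnr against SG (SE 0.16, limma adjusted p = 0.0293) and was higher in YSGr than in YSGnr by 0.68 (adjusted p = 0.0445). Cacng3 had 2.39, 2.41 and 2.16 log2 CPM in YSGr, 1.66, 1.82 and 1.57 in YSGnr and 3.21, 2.44 and 2.65 in SG, and fell by 1.09 in YSGnr against SG (SE 0.23, adjusted p = 0.0411). Its 3 groups did not overlap, with SG highest and YSGnr lowest. Cacng7, the most abundant of the 109 per length in YSGr and SG, was not called, with a log2 fold change of 0.21 in YSGr and 0.08 in YSGnr.

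Voltage-gated potassium pores and modifiers form the largest class, 34 genes, of which 6 rose in YSGr against SG and 28 were not called. The Shaker-type pore Kcna1, a low-threshold channel of axons, had 7.28, 7.23 and 5.99 log2 CPM in YSGr, 6.03, 4.94 and 4.90 in YSGnr and 5.06, 4.88 and 5.34 in SG. YSGr stood above SG, and YSGr replicate 3 lay just below YSGnr replicate 1. The log2 fold change against SG was 1.74 (SE 0.39, limma adjusted p = 0.0254). The related pore Kcna6 had 5.97, 5.94 and 5.36 log2 CPM in YSGr, 5.33, 4.31 and 4.46 in YSGnr and 4.57, 4.53 and 4.87 in SG, with all YSGr libraries above all others. It rose by 1.10 log2 units against SG (SE 0.28, adjusted p = 0.0359). The high-threshold pore Kcnc4 also rose against SG, by 0.86 log2 units (adjusted p = 0.0298). Kcnc1 (0.95, adjusted p = 0.0721) and the A-type pore Kcnd2 (0.71, adjusted p = 0.301), a main channel of the granule cell A current, were not called.

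Of 11 auxiliary subunits of voltage-gated potassium channels, 3 rose in YSGr against SG. Kcnip2, a calcium-binding partner of Kcnd pores, had 3.09, 3.40 and 2.57 log2 CPM in YSGr, 2.69, 1.22 and 1.74 in YSGnr and 0.94, 0.75 and 1.05 in SG. Both fYap1 groups stood above SG and overlapped each other. Kcnip2 rose 4.31-fold in YSGr (log2 fold change 2.11, SE 0.37, limma adjusted p = 0.0113), and the 0.97 in YSGnr was not called (adjusted p = 0.15). Kcnip1 rose by 0.76 and the cytoplasmic Kcna partner Kcnab1 by 1.03 log2 units in YSGr. Kcnip3, the most abundant auxiliary gene per length, was not called, at -0.05 in YSGr and 0.30 in YSGnr.

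Among 10 genes of calcium- and sodium-activated potassium channels, 2 rose in YSGr. Kcnt1, a sodium-activated pore, had 5.14, 5.58 and 4.66 log2 CPM in YSGr, 3.99, 3.14 and 3.57 in YSGnr and 3.38, 3.13 and 3.50 in SG. YSGr exceeded every other library, and YSGnr overlapped SG. Kcnt1 rose 3.46-fold against SG (log2 fold change 1.79, SE 0.28, limma adjusted p = 0.0067) and 2.94-fold against YSGnr (1.56, SE 0.28, adjusted p = 0.0278). Kcnmb4, the neuronal auxiliary subunit of the large-conductance calcium-activated channel, rose by 0.49 (adjusted p = 0.047). Its gene partly overlaps the antisense RNA Kcnmb4os2, which the naming rule also takes, and reads from the shared stretch cannot be told apart without strand. The large-conductance pore Kcnma1 had a log2 fold change of 0.51 (adjusted p = 0.55) and the small-conductance pore Kcnn2 one of 0.03 (adjusted p = 0.949).

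Inward rectifiers included both rises and a fall. Kcnj9, a pore of the G-protein-gated channel that slows firing after inhibitory receptor signals, had 4.17, 4.31 and 3.70 log2 CPM in YSGr, 2.75, 2.10 and 2.02 in YSGnr and 1.57, 2.36 and 1.78 in SG. YSGr lay above every other library. Kcnj9 rose 4.46-fold against SG (log2 fold change 2.16, SE 0.29, limma adjusted p = 0.00387) and 3.41-fold against YSGnr (1.77, SE 0.29, adjusted p = 0.0267). Its partner pores Kcnj6 and Kcnj3 had log2 fold changes of 1.50 (SE 0.59, adjusted p = 0.144) and 1.11 (SE 0.35, adjusted p = 0.0769) in YSGr against SG. Kcnj2, a strong inward rectifier found in glia, vessels and muscle as well as neurons, had 2.44, 2.26 and 1.93 log2 CPM in YSGr, 2.30, 2.43 and 1.93 in YSGnr and 2.99, 3.05 and 3.22 in SG. It was below SG in all 6 fYap1 libraries. In YSGr Kcnj2 fell by 0.88 log2 units (SE 0.21, limma adjusted p = 0.0317), beside -0.86 in YSGnr (adjusted p = 0.0577), which was not called. Markers of vessels and muscle were lower in some of the same libraries, and their part in the Kcnj2 result was not tested. Of the 4 skeletal muscle markers tested, 2 fell in YSGr and 1 in YSGnr against SG, and the summed level of the list's 5 genes ran from 5.10 to 8.79 CPM in YSGr, 5.10 to 14.0 in YSGnr and 18.8 to 24.7 in SG, with 2 of the 5 at the lowest table value in at least 1 library. Of 5 endothelial and 6 mural cell markers, 3 and 2 fell in YSGnr and none was called in YSGr against SG. The endothelial sum ran from 185 to 214 CPM in YSGr, 119 to 162 in YSGnr and 203 to 227 in SG, and the mural sum from 218 to 299 CPM in YSGr, 184 to 235 in YSGnr and 291 to 308 in SG.

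Leak channels of the K2P family had 4 of 9 genes called higher in YSGr against SG, Kcnk1 among them. Kcnk3 (ENSMUSG00000049265.7, chromosome 5, 30588170 to 30625271, plus strand, GRCm38) encodes an acid-sensitive leak channel. It had 5.34, 5.53 and 5.06 log2 CPM in YSGr, 4.19, 3.31 and 3.90 in YSGnr and 2.84, 2.80 and 3.13 in SG. The groups did not overlap, with YSGr highest and SG lowest. The log2 fold change in YSGr was 2.39 against SG (SE 0.23, limma adjusted p = 0.00129), the smallest adjusted p among the 109, and 1.51 against YSGnr (SE 0.23, adjusted p = 0.0267). In YSGnr against SG it was 0.88 and was not called (adjusted p = 0.07).

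Kcnk12 had 3.43, 3.67 and 3.03 log2 CPM in YSGr, 2.38, 2.07 and 2.34 in YSGnr and 1.81, 1.16 and 2.03 in SG. Its groups were also separate in the same order, and it rose by 1.71 log2 units in YSGr against SG (SE 0.27, limma adjusted p = 0.00722). The mechanosensitive leak channel Kcnk2 rose by 1.13 (adjusted p = 0.021). Kcnk9, the acid-sensitive leak channel known from mature granule cells, had a log2 fold change of 1.87 in YSGr against SG but a wide SE of 0.63, and was not called (adjusted p = 0.091).

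None of the 4 Hcn genes, whose channels open on hyperpolarization and pace firing, was called in YSGr against SG, and 1 was higher at an unadjusted p below 0.05. Hcn3 (ENSMUSG00000028051.10, chromosome 3, 89146074 to 89160196, minus strand, GRCm38) had 3.82, 3.93 and 3.75 log2 CPM in YSGr, 3.36, 3.50 and 3.21 in YSGnr and 4.15, 4.12 and 4.13 in SG. SG was highest and YSGnr lowest, with no overlap between any of the groups. Hcn3 fell by 0.78 on the log2 scale in YSGnr against SG (SE 0.14, limma adjusted p = 0.0258), and the -0.30 in YSGr was not called (adjusted p = 0.207). Hcn2, the most abundant member per length, was 0.69 higher in YSGr than in SG without a call (adjusted p = 0.0628).

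**Figure D3:**
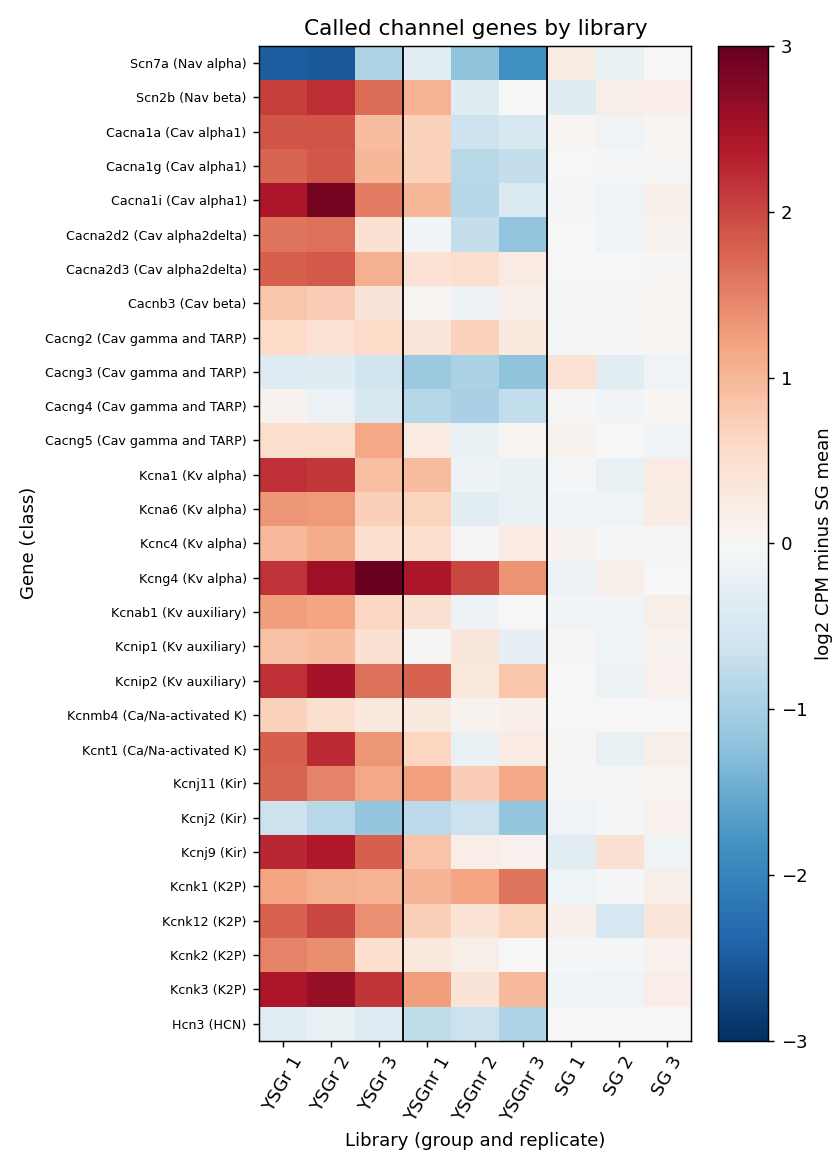
Each row is 1 of 29 of the 33 channel genes called in at least 1 comparison, each column a library, and colour gives log2 CPM minus the SG mean, red above and blue below. Most rows are red in YSGr, deeper in replicates 1 and 2 than in replicate 3, and YSGnr replicate 1 is redder than YSGnr replicates 2 and 3.

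Levels per length were compared as CPM per kilobase of annotated transcript, a description with no test. Cacng7 averaged 58.9 CPM per kilobase in YSGr, 53.7 in YSGnr and 50.9 in SG. Kcnk1 averaged 49.6 in YSGr, 56.5 in YSGnr and 23.2 in SG, and was thus above Cacng7 in YSGnr alone. Cacna1a led the calcium pores at 36.4 CPM per kilobase in YSGr, 11.7 in YSGnr and 11.8 in SG. Kcng4, with the largest fold change, averaged 3.55 CPM per kilobase in YSGr, 2.34 in YSGnr and 0.592 in SG.

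Partner genes, whose proteins anchor or modify these channels and which the naming rule did not take, were read from a list of 31, of which 30 were tested. The list also holds the repressor gene Rest and the channel gene Nalcn with its own partners Unc79 and Unc80. Against SG, 7 (23.3%) rose and none fell in YSGr by limma, beside 6.58% and 3.97% of all genes tested. At an unadjusted p below 0.05, 12 were higher and 3 lower, beside 14.3% and 11.9% of all genes tested. The 7 were Sptbn4, Lgi1, Dlg4, Dpp6, Dpp10, Cnih2 and Stac. Sptbn4, the spectrin that holds sodium channels at the axon initial segment, had 7.40, 7.57 and 6.20 log2 CPM in YSGr, 5.56, 4.58 and 5.13 in YSGnr and 5.33, 5.13 and 5.54 in SG, a log2 fold change of 1.72 against SG (adjusted p = 0.0201). YSGr replicate 3 was the lowest of its group and still above all other libraries. Dpp6 and Dpp10, auxiliary proteins of Kcnd pores, rose by 0.93 and 0.95 log2 units.

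In YSGnr against SG, none of the 30 listed genes rose and 2 fell by limma, Rest among them, beside 1.19% and 2.17% of all genes tested. At an unadjusted p below 0.05, 2 were higher and 4 lower, beside 11.1% and 14.5% of all genes tested. Rest encodes the repressor that keeps neuronal genes, sodium channels among them, silent in other cells. It had 3.55, 3.67 and 3.71 log2 CPM in YSGr, 3.13, 3.23 and 2.51 in YSGnr and 4.12, 4.34 and 4.05 in SG. All 6 fYap1 libraries were below SG. Rest fell by 1.21 on the log2 scale in YSGnr (SE 0.21, limma adjusted p = 0.0221), beside -0.53 in YSGr, which was not called (adjusted p = 0.14). The other gene that fell in YSGnr was Stac2, by 1.60. Against YSGnr, YSGr had 9 of the listed genes called higher and 1 lower, the AMPA receptor partner Cnih3. These are 30% and 3.33% of the listed genes, beside 5.09% and 0.879% of all genes tested.

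Markers of neurons and myelin also differed between the groups, and their part in the channel results was not tested. Of 8 mature granule neuron markers, 7 rose in YSGr and 5 in YSGnr against SG, with median log2 fold changes of 2.52 and 1.24, beside 0.49 and -0.17 over the channel genes. Their summed level ran from 904 to 1599 CPM in YSGr, 568 to 733 in YSGnr and 418 to 520 in SG. Of 7 Purkinje markers, 4 rose in YSGr and 2 in YSGnr, and the sum ran from 1314 to 2178 CPM in YSGr, 522 to 946 in YSGnr and 778 to 845 in SG. Interneuron markers had 1 of 6 called higher in YSGr and none called in YSGnr, with sums of 254 to 362 CPM in YSGr, 125 to 160 in YSGnr and 166 to 172 in SG. All 6 myelin markers rose in YSGr and 1 rose in YSGnr, with sums of 2080 to 3351 CPM in YSGr, 573 to 1551 in YSGnr and 470 to 966 in SG. Of 6 markers of granule progenitors and division, 2 fell in YSGr and none was called in YSGnr, with sums of 854 to 1848 CPM in YSGr, 2047 to 2174 in YSGnr and 2278 to 2290 in SG. None of these markers was at the lowest table value in any library. In bulk tissue, fewer cells of a type and less RNA per cell cannot be told apart.

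Individual libraries differed in a common way across channel genes. YSGr replicate 3 was the lowest of its group for 76 of the 109, and YSGnr replicate 1 was the highest of its group for 69. These are 69.7% and 63.3% of the channel genes, against 42.8% and 40.2% of all genes tested. Within SG, replicate 2 was the lowest for 72 (66.1%, against 34% of all genes) and replicate 3 the highest for 63 (57.8%, against 30.3%). The median log2 difference from the SG mean was 0.64, 0.65 and 0.17 over the 109 in YSGr replicates 1, 2 and 3, and 0.23, -0.21 and -0.30 in YSGnr replicates 1, 2 and 3. For the 26 genes called higher in YSGr against SG, chosen on these libraries, it was 1.62, 1.49 and 1.04 in YSGr. The summed markers of granule progenitors and division were also higher in YSGr replicate 3, at 1848 CPM against 1121 in replicate 1 and 854 in replicate 2. Not every gene of that list followed the sum, and Mki67 was no higher in YSGr replicate 3 than in replicate 1.

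The number of calls depended on which libraries entered the fit. Against SG, limma called 10, 10 and 52 channel genes higher without YSGr replicate 1, 2 and 3. In these fits 2.62%, 2.35% and 27.9% of all genes were called in either direction. Without SG replicate 1, 2 and 3 it called 9, 10 and 11 higher, beside 2.15%, 2.26% and 2.73% of all genes called in either direction. In each of the 9 fits that left out 1 library, 9 of the 26 were called higher in YSGr against SG. Among them were Cacna2d3, Kcng4, Kcnt1, Kcnj9, Kcnj11, Kcnk1, Kcnk3 and Kcnk12. How many calls over all genes were kept in all 9 fits was not counted. None of the 7 calls in YSGnr against SG was kept in all 9, and leaving out any 1 SG library left none in either direction. Of all genes, 0.125% to 0.151% were called in those fits. There 19 to 22 channel genes had an unadjusted p below 0.05, and the share of all genes at that threshold was not counted. None of the 15 calls of YSGr against YSGnr was kept in all 9. Without YSGr replicate 1 or 2, or without YSGnr replicate 2 or 3, limma called 0 of the 109 in that comparison (37 to 44 at an unadjusted p below 0.05). Hardly any gene was called in those fits, 0.00656% to 0.0262% of all genes. Without YSGr replicate 3 it called 61 higher and 7 lower, when 42.8% of all genes were called in either direction.

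**Figure D4:**
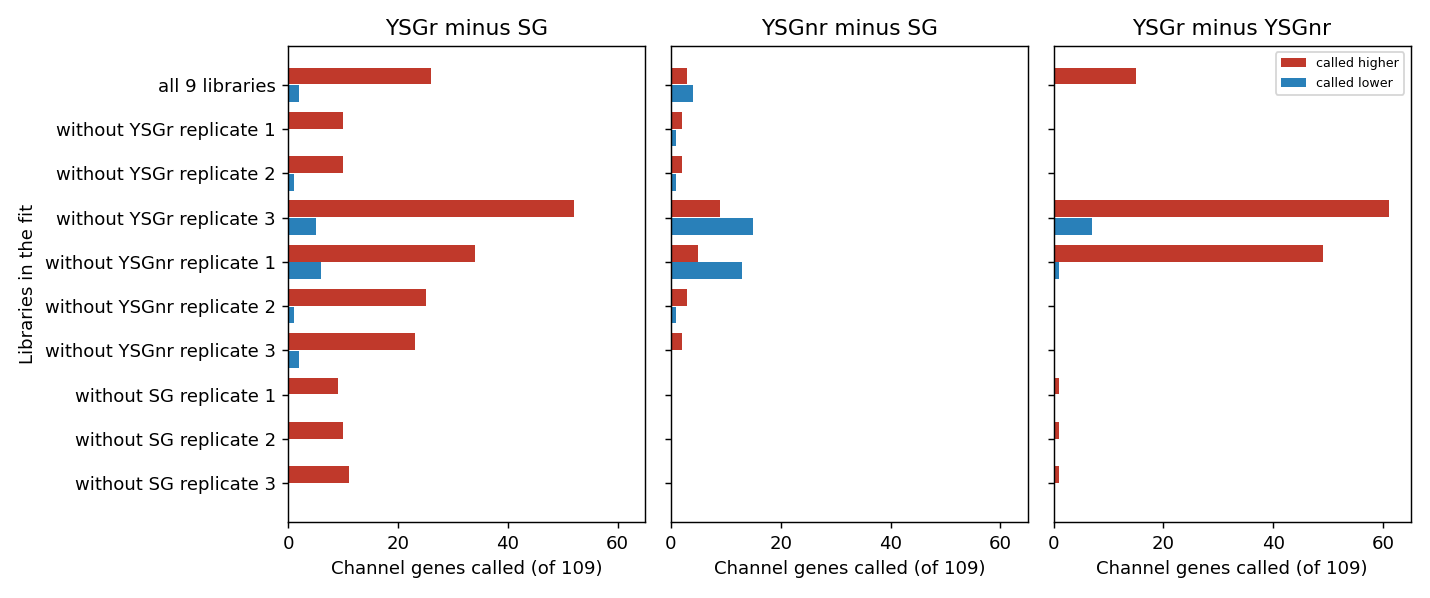
Number of the 109 channel genes called higher (red) and lower (blue) at an adjusted p below 0.05 (horizontal axis) in fits on all 9 libraries and with each library left out in turn (vertical axis), for the 3 comparisons. The count of genes called higher in YSGr minus SG runs from 9 without SG replicate 1 to 52 without YSGr replicate 3, around 26 with all libraries. Of all genes, 2.15%, 27.9% and 10.5% were called in either direction in these fits.

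Channel transcripts were longer than most, and differences between libraries varied with transcript length. The median annotated length was 4047 bases over the 109, against 3133 over tested genes with a length, and 81 of the 109 were longer than that value. Across channel genes, Spearman's rho of length and difference from the SG mean was 0.21, 0.15 and -0.22 in YSGr replicates 1, 2 and 3 and 0.11, -0.45 and -0.51 in YSGnr replicates 1, 2 and 3 (n = 109 genes, which share each library and are not independent). Over all genes tested with a length it was 0.17, 0.14 and -0.42 in YSGr replicates 1, 2 and 3 and -0.08, -0.55 and -0.53 in YSGnr replicates 1, 2 and 3. The relation in YSGr replicate 3 and in YSGnr replicates 2 and 3 was thus present across all genes and at least as strong there as among channel genes. With a length and GC trend removed from each library, limma called 36 higher and 5 lower in YSGr against SG, 7 higher and 3 lower in YSGnr against SG, and 23 higher and 2 lower in YSGr against YSGnr. In these fits 14%, 5.38% and 12.7% of all 14603 genes with a length were called in either direction, more than without the removal. Of the 28 calls of YSGr against SG, 24 were kept, and Scn7a, Kcnmb4, Cacng2 and Cacnb3 were lost. Among those gained were Hcn3, at -0.30 log2 units in the fit reported, and the pore genes Scn1a and Scn8a, at 0.80 and 0.64 in that fit.

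**Figure D5:**
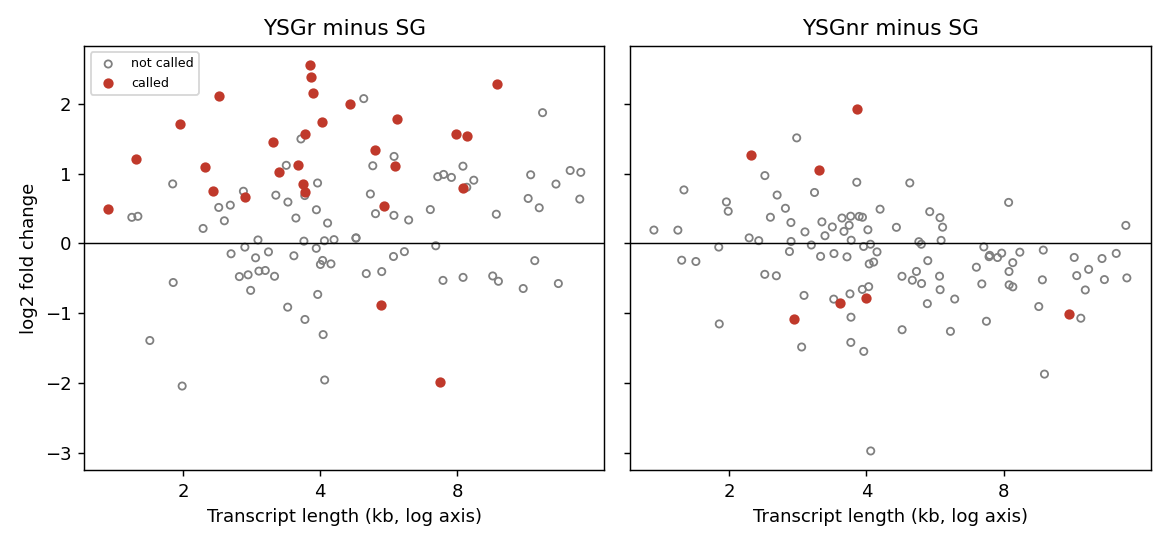
Log2 fold change (vertical axis) against annotated transcript length in kilobases (horizontal log axis) for the 109 channel genes in YSGr minus SG and YSGnr minus SG, with called genes filled. In YSGnr minus SG the points drift below 0 as length grows, and the 3 genes called higher there are all under 4 kilobases.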

How the data were processed

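The authors deposited 1 table of log2 CPM for 17482 genes, made from total RNA sequenced at BGI per the labels' protocols. The submitters' processing notes name Trimmomatic, RSEM, Bowtie2, Picard, edgeR and mm10. Not given in the sources used here are versions, annotation and strandedness. Every library shares a lowest value of -3.52, and 59.8% to 71.9% of back-calculated values were whole within 0.02 reads, so no count test was run.

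From the deposited log2 values of the 9 libraries, group differences were fitted in R 4.3.3 with limma 3.58.1, using a group-means model and a mean-variance trend, on genes above 0 log2 CPM in at least 3 libraries. Calls needed an adjusted p (Benjamini-Hochberg, over 15251 genes) below 0.05. A fold change is on the deposited scale, which holds the authors' added count and understates low genes. The steps were tested on simulated data. Lengths, GC and coordinates came from GENCODE on GRCm38, and promoters from RefSeq. Any called channel gene, and up to 3 genes per class with the highest mean log2 CPM, could be named. Cacna1b, Cacna1h, Kcnd2, Kcng1, Kcnk9, Kcnn2, Scn4b, Scn2a1 and the single partner and marker genes were chosen after their values were seen. Members, lists and tests were chosen with earlier results of these data known. Alternatives were no filter, a stricter filter, a pseudocount of 1 CPM, median scaling, quantile normalization, robust empirical Bayes, no trend, the 6 libraries of a pair, array weights, the block and single libraries left out. A length and GC trend removal and a joint omission of YSGr replicate 3 and YSGnr replicate 1 completed them. The values of some channel genes are not reported here, and counts include them.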

Additional observations from a re-analysis of the deposited data

How the results depend on the processing

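Counts of channel genes called moved by more than 1.5 times under some settings. Genes called lower in YSGr against SG, 2 in the fit reported, numbered 1 with a stricter filter (log2 CPM above 1). That filter left 95 channel genes and took out Scn7a, which was thus not tested. The number was 5 with the 6 libraries of the comparison alone and 5 with the length and GC trend removed. It was 0 with the replicate block (7 at an unadjusted p below 0.05) and 1 with the block and the trend removed. In the order given, these fits called 11.5%, 12.6%, 14%, 7.83% and 10.5% of all genes in either direction, beside 10.5% in the fit reported. With the block, the share of all genes at the unadjusted threshold was not counted. In YSGnr against SG, 7 were called higher with the trend removed. There 2 were called lower with median scaling, 9 lower with 6 libraries and 1 lower with the block and the trend removed. All genes called in either direction made up 5.38%, 2.91%, 7.8% and 2.1% in these fits, beside 3.36% in the fit reported. In YSGr against YSGnr, 8 were called higher with median scaling and 0 with 6 libraries. With the trend removed 23 were called higher and 2 lower, the 2 also with the block. The shares of all genes called in either direction were 2.07%, 0%, 12.7% and, with the block added, 10.8%, beside 5.97% in the fit reported. Array weights, whose estimate stopped before convergence, called 65 higher and 20 lower, 14 and 46, and 71 and 10 in the 3 comparisons, and called 48.0% to 65.4% of all genes. Leaving out YSGr replicate 3 with YSGnr replicate 1, chosen like the trend removal with earlier results of these data known, called 58 and 11, 14 and 48, and 71 and 12, and called 49.5%, 52.9% and 64.7% of all genes.

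With 1 library left out, the calls ran from 9 to 52 higher and 0 to 6 lower in YSGr against SG, 0 to 9 and 0 to 15 in YSGnr against SG, and 0 to 61 and 0 to 7 in YSGr against YSGnr. The share of all genes called in either direction ran from 2.15% to 27.9%, 0.125% to 21.8% and 0.00656% to 42.8%. Deviations of same-numbered libraries correlated from -0.23 to 0.24 over 9 pairs, and those of differently numbered libraries from -0.25 to 0.23. Whether the replicate numbers pair the libraries cannot be told from these similar ranges. The block called 22 higher in YSGr against SG (48 at an unadjusted p below 0.05), 2 higher and 3 lower in YSGnr against SG, and 16 higher in YSGr against YSGnr. In these comparisons it called 7.83%, 2.24% and 5.64% of all genes in either direction. No called gene changed direction under any setting run. The cause of these shifts was not tested, and the 3 libraries of a group and the depth of YSGnr replicate 1 limit the precision.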

Other observations

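Some channel genes varied more within a group than between groups, and these were chosen after their values were seen. Kcng2, another silent modifier of potassium channels, had -0.14, 0.08 and 2.91 log2 CPM in YSGr, 2.91, 2.75 and 3.75 in YSGnr and 1.59, 1.62 and 1.66 in SG. YSGr replicate 3 lay among the YSGnr libraries, YSGr replicates 1 and 2 lay below SG, and no comparison was called. Kcnn4, the intermediate-conductance calcium-activated channel of proliferating and blood cells, had -2.16, -3.00 and 2.16 log2 CPM in YSGr, 1.66, 1.11 and 1.74 in YSGnr and 1.27, 0.87 and 0.98 in SG, with YSGr replicate 3 again apart from its group and no call. Atoh1, the transcription factor of granule progenitors, was at 3.89, 3.34 and 6.89 log2 CPM in the same YSGr libraries.

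Kcnj10, the glial inward rectifier that the naming rule leaves out, had 6.88, 7.11 and 7.05 log2 CPM in YSGr, 7.08, 6.94 and 6.85 in YSGnr and 7.69, 7.63 and 7.87 in SG. It fell by 0.71 in YSGr (SE 0.13, limma adjusted p = 0.0136) and by 0.77 in YSGnr (SE 0.13, adjusted p = 0.0225) on the log2 scale, both against SG. The other 5 genes of the astrocyte and Bergmann glia list went different ways. In YSGr against SG, Gfap rose by 1.71 (adjusted p = 0.0229), Aqp4 was at 0.53 without a call, and 3 of the 6 genes were above 0, while in YSGnr Gdf10 fell by 1.17 with Kcnj10. The summed level of the 6 astrocyte and Bergmann glia markers, which include Kcnj10, ran from 1615 to 2634 CPM in YSGr, 1148 to 1737 in YSGnr and 1800 to 1926 in SG.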
